A study of Mus musculus with 136 samples.

Results

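Heme is made in a chain of enzyme steps, and the 8 genes described here encode enzymes of that chain. They are Alas1, Alas2, Alad, Uros, Urod, Cpox, Ppox and Fech. Their rows in the table of molecule counts were found by gene symbol, and the set was chosen with earlier results of these data known. Each symbol matched 1 of the 47643 genes of the table. Embryo and visceral yolk sac of 66 NOD concepti had been profiled separately at E8.5, and the question was how expression in either tissue differed between diabetic and normal pregnancies. NOD is an inbred mouse strain prone to autoimmune diabetes, and the disease of the dams arose without a drug or an engineered allele. Sires were NOD males with normal blood glucose. Recorded maternal blood glucose was 423 to 595 mg/dl in the diabetic litters, with 1 litter given only as above, and 105 to 164 mg/dl in the normal litters. The 5–6 somite stages comprised 17 concepti of normal pregnancies, out of 10 litters, and 17 of diabetic ones, out of 9. The 7–9 somite stages comprised 16 of each condition, out of 7 and 6 litters, and litter D24M15 gave 7 of the latter 16. Dams, not single concepti, received a condition, so littermates share their dam, and the spread between concepti is not the spread between dams. For the comparison of conditions, tests over litter means of the enzymes are therefore given beside the tests over libraries.

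The pathway starts in the mitochondrion, where 5-aminolevulinate synthase joins glycine and succinyl-CoA in the step that usually limits the rate. Alas1 encodes the form of this enzyme found in most cells, and Alas2, on the X chromosome, the form of developing red cells. Alad, Uros and Urod act in the cytosol, where they build the porphyrin ring and trim its side chains. Cpox, Ppox and Fech act in or at the mitochondrion, and Fech inserts iron to give heme. At this age the blood islands of the yolk sac produce primitive erythroid cells, which carry embryonic globins and need heme for hemoglobin. The visceral endoderm covers the yolk sac and handles nutrient uptake.

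Depth was 1017901 to 5757211 counts per library over the 136 libraries, with a median of 2337159. The 4 libraries that repeat embryo and yolk sac of 2 concepti were left out of comparisons. Between repeats, the 16 values of the enzymes in embryos differed by a median of 0.21 on the log2 scale, and the 16 values in yolk sacs by a median of 0.12. Values below are normalized counts, which are counts divided by a size factor for the library. The 3′ method counts 1 tag per RNA molecule, so levels of different genes were compared without correction for length. A pair of yolk sac libraries stood apart, since their size factors relative to their total counts, 0.709 in the diabetic yolk sac D28M36C and 0.752 in the normal yolk sac N28M06A, were below the next lowest of 0.841. D28M36C also had the fewest counts of all. It held the highest yolk sac values of Fech, 755, of Alad, 675, of Urod, 361, and of Ppox, 53, and results of yolk sacs are given without these libraries where this changed a call. The tissue labels were checked against marker genes. In the 4 combinations of stage and condition, the 5 primitive erythroid markers had mean levels in embryos of 0.45%, 0.58%, 1.84% and 3.65% of those in yolk sacs, as medians over the markers, and the 10 visceral endoderm markers 1.67% to 3.44%. Embryo libraries thus held erythroid and visceral endoderm transcripts at low levels at both stages. The paper cautions that visceral endoderm is hard to remove fully from embryos, so a few yolk sac cells could add low counts. The part of such cells in the embryo values was not tested. In such samples of whole tissue, fewer cells of a type and less RNA per cell cannot be told apart.

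Promoter sequences of the enzymes are shown because the members differed widely in how far they were raised in the yolk sac, the tissue that makes blood, and because the erythroid factor GATA1 recognizes short motifs that can be looked up. RefSeq start sites of build GRCm38.p6 were found for 7 of the 8 genes, 10 start sites in all. The 250 bases before each start were searched on both strands for GATA preceded by A or T and followed by A or G. Alas2, Cpox and Uros held at least 1 such motif, and Ppox, Alad, Urod and Alas1 held none. By window, 3 of the 10 start sites of the enzymes had a motif, and of 32851 windows of the same length before start sites over the genome, 26.5% held one. A relation of motifs to levels was not tested. The stretches below are written 5′ to 3′ in the direction of the gene, without any annotated exon, and capitals mark the motifs as they read on that strand. The stretch of Alas2 is chrX:150547167-150547374 on the plus strand, that of Cpox chr16:58669958-58670207 on the plus strand, that of Uros, before its second start site, chr7:133702617-133702750 on the minus strand, and that of Urod, shown as one without a motif, chr4:116994414-116994663 on the minus strand.
Alas2: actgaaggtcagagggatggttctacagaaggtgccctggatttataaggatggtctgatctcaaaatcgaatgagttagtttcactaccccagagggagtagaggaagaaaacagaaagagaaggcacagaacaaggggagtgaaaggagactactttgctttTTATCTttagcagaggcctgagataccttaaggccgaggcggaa
Cpox: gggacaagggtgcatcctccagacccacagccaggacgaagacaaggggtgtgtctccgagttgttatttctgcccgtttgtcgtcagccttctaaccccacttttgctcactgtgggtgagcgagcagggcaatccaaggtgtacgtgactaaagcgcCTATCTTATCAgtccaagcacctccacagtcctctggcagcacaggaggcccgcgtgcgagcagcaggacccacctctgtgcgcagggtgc
Uros: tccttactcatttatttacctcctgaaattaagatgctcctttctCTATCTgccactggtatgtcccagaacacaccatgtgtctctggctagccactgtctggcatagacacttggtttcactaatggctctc
Urod: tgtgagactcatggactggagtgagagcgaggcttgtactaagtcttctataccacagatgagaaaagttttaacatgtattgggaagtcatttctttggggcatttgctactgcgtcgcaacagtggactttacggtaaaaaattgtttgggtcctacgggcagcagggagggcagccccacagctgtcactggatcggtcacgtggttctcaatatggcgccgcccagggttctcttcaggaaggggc
The motif of Alas2 began 86 bases before the start site. The motifs of Cpox began 91 and 86 bases before it and shared 1 base. Uros had motifs 205 and 68 bases before its second start, the nearer of them within an annotated exon and not shown, and none before its first. A match of letters is a description and not a site of binding. In build GRCm38 the genes are annotated as protein coding, with Alas1 (ENSMUSG00000032786) at chr9:106233455-106248654 on the minus strand, Alas2 (ENSMUSG00000025270) at chrX:150547375-150570638 on the plus strand, Alad (ENSMUSG00000028393) at chr4:62509169-62519918 on the minus strand, Uros (ENSMUSG00000030979) at chr7:133686243-133710072 on the minus strand, Urod (ENSMUSG00000028684) at chr4:116989965-116994413 on the minus strand, Cpox (ENSMUSG00000022742) at chr16:58670292-58717636 on the plus strand and Ppox (ENSMUSG00000062729) at chr1:171275990-171281186 on the minus strand. Fech has the identifier ENSMUSG00000024588. Genes on the opposite strand overlap 5 of the enzymes. Those of Alas1 and Cpox, 4930500F10Rik and Gpr15, averaged 0.288 and 0.0152 counts per embryo library and 0.212 and 0.0 per yolk sac library, and Mir3620, at Alas2, had no count. Apex2 also overlaps Alas2, B4galt3 overlaps Ppox, and Bccip overlaps Uros. Apex2 averaged 68.3 counts per embryo library and 55.2 per yolk sac library, against 3.11 and 114 for Alas2. B4galt3 averaged 103 and 154 counts, against 7.64 and 16.7 for Ppox. Bccip averaged 68.2 and 89.1 counts, against 7.06 and 26.3 for Uros. Whether counting used the strand is not given in the sources used here, and if it did not, reads of such pairs cannot be told apart where they overlap.

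All 8 enzymes were higher in the yolk sac than in the embryo at both stages, and Alas2, the erythroid form of the first enzyme, was the most unequal. With yolk sac and embryo compared over all libraries of a stage, an adjusted p under 0.05 in edgeR's quasi-likelihood test, with Benjamini-Hochberg adjustment over all genes tested, counted as a call. At the 5–6 somite stages 8 of 8 enzymes were called higher in the yolk sac, where 38.5% of all genes tested were. At the 7–9 somite stages it was again 8 of 8, beside 39.1% of all genes tested. Alas2, Uros and Ppox had too few counts to be tested within embryos and entered this comparison through their yolk sac counts. For them the filter favored a call in this direction. The median log2 difference of the enzymes was 1.47 and then 1.94, against −0.02 and −0.03 over all genes tested.

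Alas2 ranged from 0 to 8.08 normalized counts in the 34 embryos at the 5–6 somite stages, with a median of 1.15, and from 40.3 to 182, with a median of 73.4, in the 34 yolk sacs. At the 7–9 somite stages it ranged from 0 to 30.6, with a median of 2.0, in the 32 embryos, and from 61.8 to 296, with a median of 142, in the 32 yolk sacs. Every yolk sac was above every embryo at either stage. The log2 difference was 5.71 ± 0.19 (SE) in the earlier and 5.10 ± 0.23 in the later concepti, 52.2-fold and 34.2-fold, with adjusted p values of 8.63e-41 and 3.06e-32. In 9 embryos no count of Alas2 was seen, 2 to 3 in each of the 4 groups, and a count of 0 allows up to 3 counts, which is 2.11 to 3.86 normalized counts in these libraries. These limits cover counting error only.

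Alas1, the form used outside the red cell lineage, had a median of 13 in embryos (6.47 to 19.6) and of 22.4 in yolk sacs (10.2 to 40.5) at the 5–6 somite stages. The medians at the later stage were 12.3 (5.44 to 18.9) and 24.3 (8.95 to 40.0). The tissues overlapped, and the yolk sac was the higher of the pair in 30 of 34 and 29 of 32 concepti. The log2 difference was 0.99 ± 0.11 in the earlier and 0.98 ± 0.12 in the later concepti, that is 1.99-fold and 1.98-fold.

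Of the cytosolic enzymes, Alad, which joins molecules of aminolevulinate into porphobilinogen, had a median of 120 in embryos (93.4 to 213) and of 235 in yolk sacs (136 to 462) at the 5–6 somite stages. They were, at the later stage, 153 (91.2 to 259) and 314 (207 to 675). The ranges overlapped, yet the yolk sac was the higher tissue in every one of the 66 concepti, with log2 differences of 1.03 ± 0.09 and 1.11 ± 0.09. Uros, which closes the ring in the right orientation, had a median of 5.26 in embryos (1.40 to 12.0) and of 18.4 in yolk sacs (7.33 to 62.5) at the earlier stage. At the later stage its medians were 6.85 (1.02 to 11.4) and 31.6 (10.9 to 75.3). It too was higher in the yolk sac in all 66 concepti, by 1.85 ± 0.16 and 2.31 ± 0.17 on the log2 scale. Urod, which removes carboxyl groups from the ring, was the least unequal of the 8. Its medians were 91.1 in embryos (58.2 to 161) and 106 in yolk sacs (62.2 to 272) at the earlier stage, and the yolk sac was higher in 22 of 34 concepti. At the later stage the medians were 105 (65.2 to 147) and 155 (100 to 361), and the yolk sac was higher in 30 of 32. The log2 difference of Urod was 0.22 ± 0.08 with an adjusted p of 0.0165 in edgeR's test at the earlier stage, and this call was lost without the pair of yolk sacs that stood apart, at 0.16 with an adjusted p of 0.055. At the later stage the difference was 0.65 ± 0.09, and 0.62 without them.

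Of the mitochondrial enzymes, Cpox, which makes protoporphyrinogen, reached the highest yolk sac levels of all 8. Its medians were 143 in embryos (52.7 to 271) and 982 in yolk sacs (142 to 1906) at the earlier stage. At the later stage they were 152 (33.3 to 246) and 1228 (664 to 1772). The single low value of 142 was the diabetic yolk sac D28M02G. The ranges did not overlap at the later stage, and the log2 differences were 2.74 ± 0.13 and 3.06 ± 0.11, that is 6.67-fold and 8.35-fold. Ppox, which oxidizes that product to protoporphyrin, was low in either tissue, with medians of 5.73 in embryos (1.26 to 14.8) and 12.9 in yolk sacs (5.00 to 20.8) at the earlier stage. At the later stage the medians were 7.75 (3.02 to 11.8) and 20.1 (11.3 to 53). Its log2 differences were 1.10 ± 0.15 and 1.57 ± 0.12. Fech, the ferrochelatase, had medians of 63.8 in embryos (47.5 to 93.4) and 278 in yolk sacs (169 to 379) at the earlier stage. At the later stage they were 56.6 (43.0 to 84.2) and 299 (228 to 755). Its tissues did not overlap at either stage, and the log2 differences were 2.16 ± 0.06 and 2.43 ± 0.08. Every yolk sac was above every embryo for 2 of the 8 enzymes at the 5–6 somite stages, Alas2 and Fech, and for 3 at the 7–9 somite stages, with Cpox added. This held for 6.91% and 7.74% of all genes tested. Alas2 was among the genes tested only through its yolk sac counts.

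**Figure D1:**
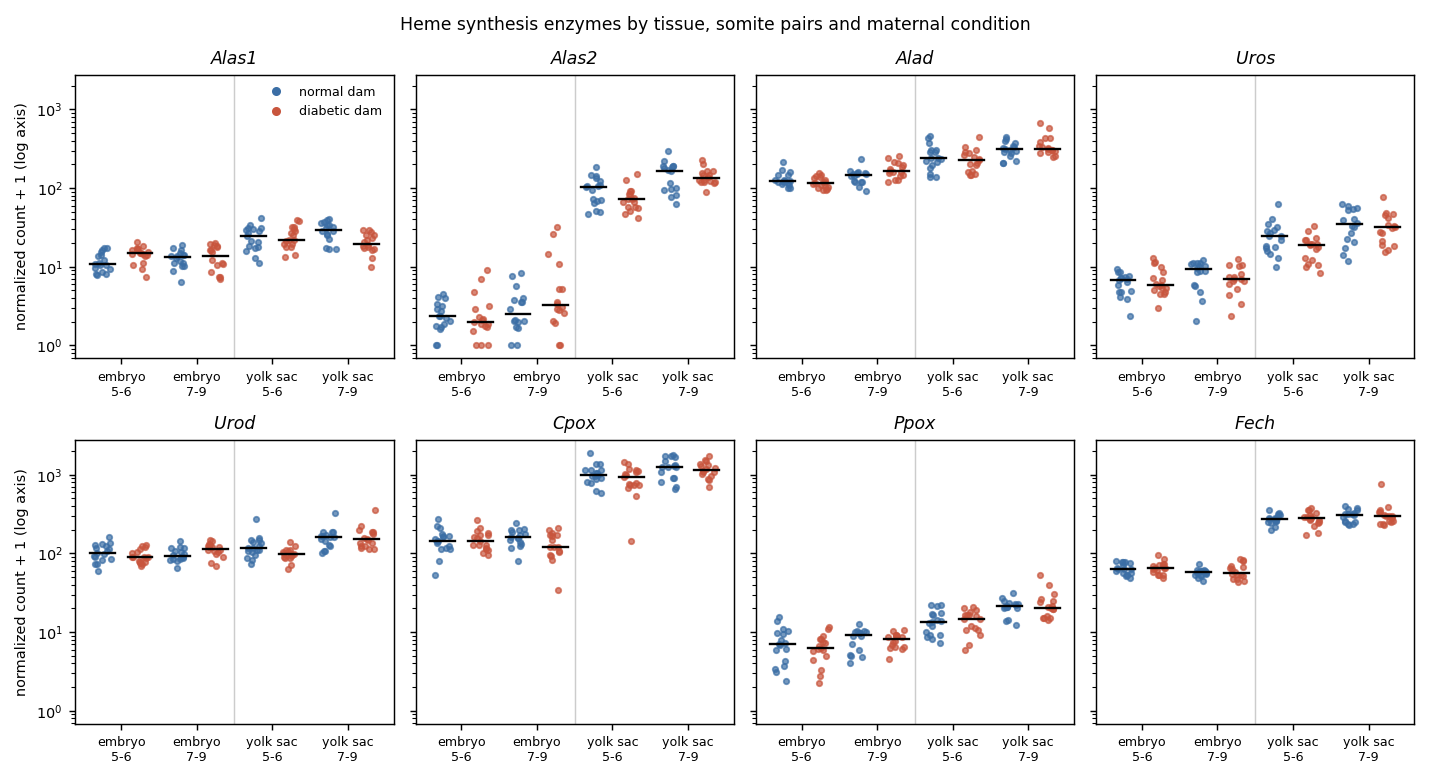
Normalized counts plus 1, on a log axis, of the 8 enzymes in each library, by tissue, somite pairs and maternal condition, with bars at the group medians. Yolk sac and embryo are separate for Alas2 and Fech at both stages, with medians of Alas2 of 1.15 against 73.4 and 2.0 against 142, while those of Urod overlap (91.1 against 106 and 105 against 155).

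Embryo levels may be set as a share of yolk sac levels and placed beside those of markers. The mean of Alas2 in embryos was 1.91% of its mean in yolk sacs for the 5–6 and 2.97% for the 7–9 somite stages. By condition it was 1.55% in normal and 2.38% in diabetic pregnancies of the earlier stage, where the 5 erythroid markers stood at 0.358% to 1.66% and 0.409% to 0.837%. In the later concepti it was 1.53% and 4.5%, beside markers at 1.31% to 2.07% and 3.11% to 5.03%. Cpox stood at 15.4% and 12.2%, Fech at 23.2% and 18.6%, Uros at 27.3% and 20.2%, and Ppox at 46.7% and 33%. Alad stood at 50.5% and 46.9%, Alas1 at 51.9% and 51.0%, and Urod at 88.1% and 64.3%. The 7 enzymes other than Alas2 were thus present in embryos at higher shares than the primitive erythroid markers, whose medians were at most 3.65%. Endothelial markers, as another cell type of either tissue, had medians of 29.3% to 46.2%.

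The order of the enzymes within a tissue differed. In yolk sacs of the 5–6 somite stages the means descended from Cpox (974) over Fech (277), Alad (247), Urod (111), Alas2 (86.5), Alas1 (23.5) and Uros (20.7) to Ppox (12.9). In embryos of these stages they descended from Cpox (150) over Alad (125), Urod (98.2), Fech (64.2), Alas1 (12.2), Ppox (6.05) and Uros (5.65) to Alas2 (1.65). At the 7–9 somite stages the yolk sac order was Cpox (1210), Alad (337), Fech (311), Urod (162), Alas2 (146), Uros (33.8), Alas1 (24) and Ppox (21.4). The embryo order then was Alad (158), Cpox (147), Urod (104), Fech (57.9), Alas1 (12.2), Ppox (7.08), Uros (6.82) and Alas2 (4.34). Neighbours in these orders were compared within libraries by paired sign-flip permutation tests, two-sided, and 21 of the 28 comparisons had an adjusted p under 0.05. The neighbours not told apart were Cpox and Alad, and Ppox and Uros, in embryos of either stage. In yolk sacs they were Alas1 and Uros at the earlier stage, and Alad and Fech, and Alas1 and Ppox, at the later one. Libraries of a litter were treated as independent in these tests. Alas2 thus stood last in embryos and in the middle of the order in yolk sacs.

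The share of the erythroid form among transcripts of the first enzyme followed the tissue. Of the summed counts of Alas1 and Alas2, Alas2 made up 81.6% in normal and 77.1% in diabetic yolk sacs of the 5–6 somite stages, with 1596 and 1439 counts of Alas2 behind these shares. In those of the 7–9 somite stages it was 83.7% in normal and 87.4% in diabetic yolk sacs, on 2169 and 2326 counts. In embryos the shares were 12.5% and 11.2% first and 16.2% and 32.7% later, on only 33, 34, 37 and 101 counts of Alas2. Alas2 exceeded Alas1 in all 66 yolk sacs, in no embryo of the earlier stage, and in 1 normal and 3 diabetic embryos of the later stage. The log2 ratio of Alas2 to Alas1, taken as litter means, did not separate diabetic from normal pregnancies. Exact two-sided permutation tests of the litters yielded p values of 0.525 and 0.223 for embryos of the earlier and later stage, and of 0.442 and 0.283 for yolk sacs, all 0.525 after adjustment.

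**Figure D2:**
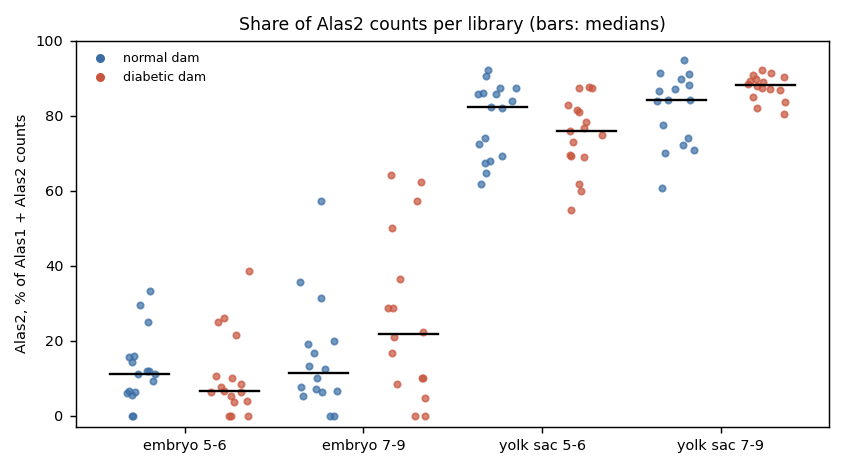
Share of Alas2 in the summed counts of Alas1 and Alas2 in each library, in percent, by tissue, somite pairs and maternal condition, with bars at the medians. Yolk sacs lie between 54.8% and 94.8%, and embryos reach at most 64.3%.

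Several enzymes rose with stage in yolk sacs, with Alas2 and Ppox called under either condition. In diabetic pregnancies 5 of 8 enzymes were called higher at the 7–9 than at the 5–6 somite stages, beside 18.0% of all genes tested. They were Alas2, Uros, Urod, Ppox and Alad. In normal pregnancies it was 2 of 8, Alas2 and Ppox, beside 4.82% of all genes tested. No enzyme was called lower. The median log2 difference of the 8 was 0.65 in diabetic and 0.33 in normal yolk sacs, against 0.01 and −0.03 over all genes tested.

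Alas2 in normal yolk sacs went from a median of 101 (46.5 to 182) to one of 166 (61.8 to 296), by 0.61 ± 0.19 on the log2 scale, with an adjusted p of 0.0418 in edgeR's test. In diabetic yolk sacs it went from a median of 72.4 (40.3 to 149) to one of 132 (89.5 to 226), by 0.89 ± 0.14, with an adjusted p of 8.13e-06. The groups overlapped under either condition. When each litter was left out in turn, the call in normal yolk sacs was kept in 6 of 10 fits and lost without N23M31, N24M29, N28M07 or N28M30, with differences of 0.44 to 0.73. The call in diabetic yolk sacs was kept in all 12 fits, with 0.79 to 1.0.

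Ppox rose from a median of 12.5 (6.21 to 20.8) to 20.2 (11.3 to 30.7) in normal yolk sacs and from 13.8 (5.00 to 19.8) to 19.5 (13.1 to 53) in diabetic ones. These were log2 differences of 0.63 ± 0.16, adjusted p = 0.0105, and 0.70 ± 0.18, adjusted p = 0.00266, in edgeR's test. Both calls were kept without any single litter.

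Urod rose in diabetic yolk sacs from a median of 97.1 (62.2 to 139) to 151 (112 to 361), by 0.73 ± 0.12, adjusted p = 2.43e-05 in edgeR's test. In normal yolk sacs its medians were 118 (71.8 to 272) and 159 (100 to 321), with a difference of 0.35 ± 0.14 and an adjusted p of 0.116. Uros rose in diabetic yolk sacs from 17.9 (7.33 to 32.4) to 30.7 (14.4 to 75.3), by 0.90 ± 0.21, adjusted p = 0.000958. In normal ones its medians were 23.5 (8.93 to 62.5) and 33.6 (10.9 to 61.1), with 0.53 ± 0.23 and an adjusted p of 0.147. The normal yolk sac N28M06A, 1 of the pair that stood apart, held the highest value of either gene among normal yolk sacs of the earlier stage. Without that pair, 4 of 8 enzymes were called higher in normal yolk sacs, with Urod at 0.45, adjusted p = 0.011, and Uros at 0.67, adjusted p = 0.0321, in edgeR's test, beside Alas2 at 0.64 and Ppox at 0.67. In diabetic yolk sacs the same 5 were called without it. More genes over the whole table were also called with stage in normal yolk sacs without the pair, as given in the last section. The share of all genes called higher without the pair is not given. Whether the enzymes gained calls beyond other genes was not tested.

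Alad rose in diabetic yolk sacs from a median of 226 (145 to 447) to 317 (249 to 675), by 0.60 ± 0.14, adjusted p = 0.00131 in edgeR's test, and stood at 0.53 without the pair of libraries. In normal yolk sacs its difference was 0.27 ± 0.14 with an adjusted p of 0.24. Cpox differed by 0.37 ± 0.17 in diabetic and 0.25 ± 0.14 in normal yolk sacs, and Fech by 0.17 ± 0.12 and 0.13 ± 0.09, none of them called. Without the pair of libraries that stood apart, Fech differed by 0.05 in diabetic yolk sacs. Alas1 had opposite signs, −0.25 ± 0.16 in diabetic and 0.30 ± 0.16 in normal yolk sacs, neither called. The difference in the stage change between the conditions was tested as an interaction and was called for 0 of 8 enzymes by edgeR and by DESeq2 in yolk sacs, with 1, Alas1, at an unadjusted p under 0.05 (log2 −0.55 ± 0.23). Of all genes tested 0.0% were called there, with 634 genes at an unadjusted p under 0.05 and none called by DESeq2. Markers of blood and endoderm moved with stage in the same libraries. The primitive erythroid markers were called higher in 3 of 5 cases in normal and in 5 of 5 in diabetic yolk sacs, and their summed level went from a median of 8642 (5610 to 23618) to 18126 (7959 to 42118) in normal and from 8426 (5310 to 13570) to 18268 (14190 to 45375) in diabetic yolk sacs. Of the 10 visceral endoderm markers 5 were called higher and 1 lower in normal and 8 higher in diabetic yolk sacs. Their part in the rise of the enzymes was not tested.

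**Figure D3:**
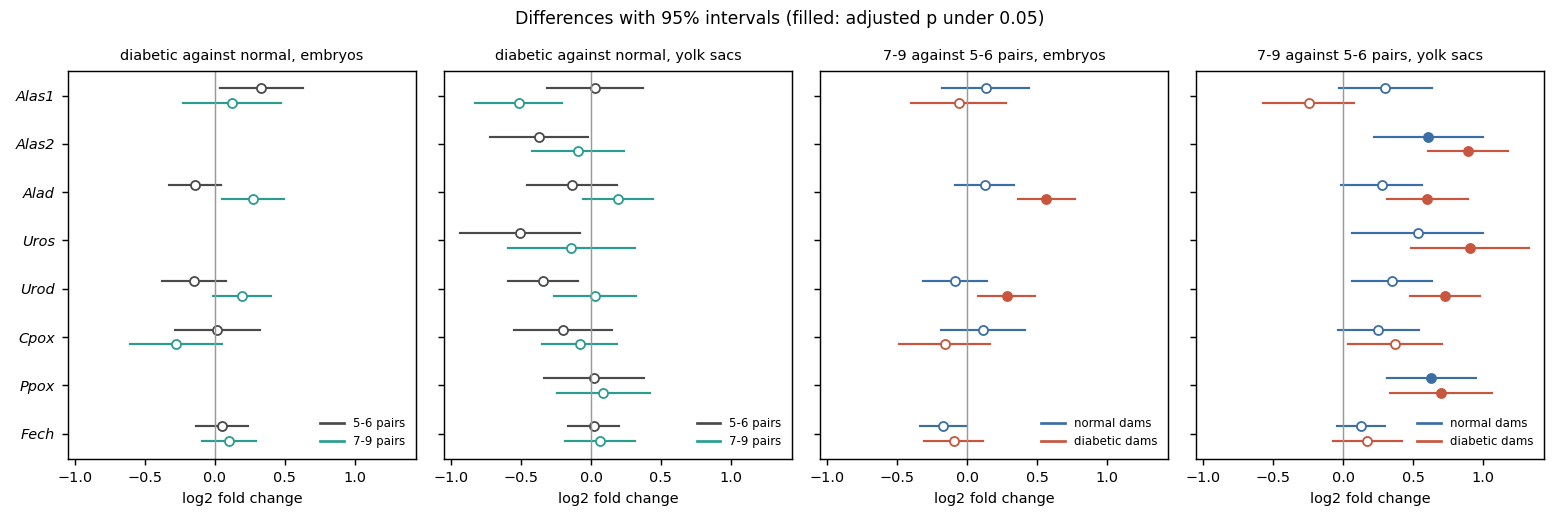
Log2 differences of the enzymes with 95% intervals, for diabetic against normal pregnancies (left panels) and for the 7–9 against the 5–6 somite stages (right panels); filled points have an adjusted p under 0.05. Filled points appear only in the panels of stage, 2 for normal and 5 for diabetic yolk sacs and 2 for diabetic embryos, and 3 of the enzymes had too few counts for the tests within embryos.

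The number of somite pairs, from 5 to 9, gave the same picture in finer steps. Over the 66 yolk sacs, with condition in the model, 5 of 8 enzymes had a slope called above 0, beside 19.5% of all genes tested. Alas2 had the steepest, at 0.29 ± 0.04 log2 units per somite pair, adjusted p = 3.36e-08 in edgeR's test. Its medians at 5, 6, 7, 8 and 9 somite pairs were 71.3, 98.3, 118, 145 and 188, over 24, 10, 11, 13 and 8 yolk sacs. In diabetic yolk sacs alone the medians were 66, 90.4, 118, 126 and 162, each above the one before, and in normal ones 94.3, 113, 101, 177 and 192, with a lower median at 7 than at 6 pairs. Uros rose by 0.24 ± 0.05 per pair, Ppox by 0.23 ± 0.04, Urod by 0.18 ± 0.03 and Alad by 0.15 ± 0.04. The slope of Cpox was 0.09 ± 0.04 with an adjusted p of 0.0667, that of Fech 0.05 ± 0.03 with 0.0981, and that of Alas1 −0.01 ± 0.04 with 0.861. The medians of Urod were 103, 116, 145, 152 and 165, and those of Ppox 13.3, 12.3, 20.1, 19.9 and 22.6. The medians of Alas1 had no such course, with 25.1, 17.9, 27.5, 22.1 and 27.7.

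**Figure D4:**
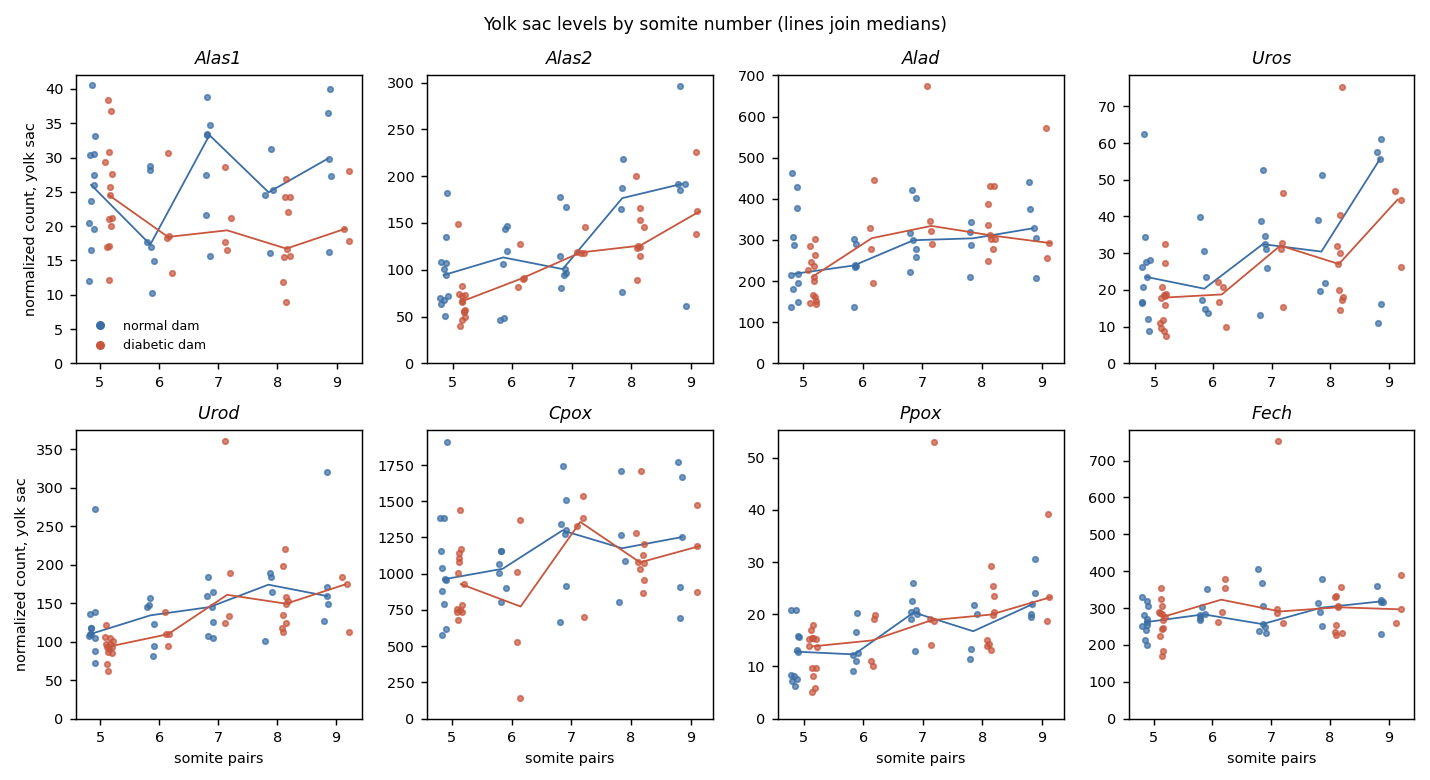
Normalized counts of the 8 enzymes in yolk sacs by number of somite pairs, with 1 point per library and lines joining the medians of each condition. Alas2 climbs from a median of 71.3 at 5 to 188 at 9 somite pairs over both conditions, while the medians of Alas1 lie between 16.7 and 33.3 by condition.

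In embryos only Alas1, Alad, Urod, Cpox and Fech had enough counts to enter the tests within the tissue, and Alas2, Uros and Ppox did not. In diabetic embryos 2 of these 5, Alad and Urod, were called higher at the 7–9 than at the 5–6 somite stages, beside 15.1% of all genes tested. Alad rose from a median of 116 (93.4 to 155) to 162 (120 to 259), by 0.57 ± 0.10 on the log2 scale, adjusted p = 7.95e-05 in edgeR's test, and was called without any single litter. Urod rose from 88.5 (68.1 to 129) to 114 (68.8 to 147), by 0.28 ± 0.10, adjusted p = 0.0315, and lost the call without D28M23, D28M31, D28M36 or D28M53. DESeq2, which tested all 8, called 3, with Alas2 added at 1.84 and an adjusted p of 0.0118. Alas2 had median counts of only 1 in the earlier and 2 in the later diabetic embryos. The share of 15.1% is that of edgeR, and the share of all genes called by DESeq2 is not given here. In normal embryos 0 of 5 were called by edgeR and by DESeq2, beside 15.1% of all genes tested, in either direction. The count at an unadjusted p under 0.05 was 1, Fech, at −0.17 ± 0.08. Alad differed there by 0.13 ± 0.10, from a median of 123 (99.3 to 213) to 146 (91.2 to 236), and Urod by −0.08 ± 0.11.

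The stage change of Alad differed between the conditions in embryos, by 0.43 ± 0.14 on the log2 scale, with an adjusted p of 0.0468 in edgeR's test of the interaction. It was the only call among the 5, beside 8.7% of all genes tested. The call lay at the threshold, with adjusted p values of 0.0417 to 0.0836 over the alternatives tried, and Urod had 0.36 ± 0.15 with an adjusted p of 0.115. By somite number, 1 of the 5 enzymes had a slope called above 0 in embryos, beside 12.7% of all genes tested. This was Alad, at 0.11 ± 0.03 per somite pair, adjusted p = 0.00132. Its medians in embryos were 114, 140, 156, 147 and 159 at 5 to 9 somite pairs.

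Maternal diabetes changed none of the enzymes past the threshold in the 4 comparisons of diabetic with normal pregnancies. In embryos of the 5–6 somite stages 0 of 5 were called, beside 1.46% of all genes tested, and in embryos of the 7–9 somite stages 0 of 5, beside 9.09%. In yolk sacs it was 0 of 8 at each stage, beside 0.0% and then 0.0194% of all genes. DESeq2 called none of them either. At an unadjusted p under 0.05 edgeR's test listed 1, 1, 3 and 1 enzymes in these comparisons. Among all genes of the earlier yolk sacs, 863 had an unadjusted p under 0.05, while 4 were called by DESeq2.

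In embryos of the 7–9 somite stages Alad had a median of 146 (91.2 to 236) in normal and 162 (120 to 259) in diabetic pregnancies. The difference was 0.27 ± 0.11 on the log2 scale, with a 95% interval of 0.05 to 0.49 and an adjusted p of 0.103 in edgeR's test. The call appeared without litter D24M15, at 0.42, and without N24M21, at 0.33. Litter means differed by 0.37, exact permutation p = 0.0105, and all 6 diabetic litters were above the normal median. Urod in the same embryos had medians of 92.0 (65.2 to 143) and 114 (68.8 to 147), a difference of 0.19, and litter means that differed by 0.32, exact permutation p = 0.00932, with 6 of 6 diabetic litters above the normal median. Adjusted over the 32 tests of litter means, both had 0.168. At the earlier stage the litter means of Alad differed in the other direction, by −0.20, exact permutation p = 0.0472, adjusted 0.378, with 7 of 9 diabetic litters below the normal median.

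Alas1 in yolk sacs of the 7–9 somite stages had a median of 28.7 (15.6 to 40.0) in normal and 18.8 (8.95 to 28.6) in diabetic pregnancies. The difference was −0.52 ± 0.15, with a 95% interval of −0.83 to −0.21 and an adjusted p of 0.26 in edgeR's test. Litter means differed by −0.36, exact permutation p = 0.0396, adjusted 0.378, and all 6 diabetic litters were below the normal median. At the 5–6 somite stages Alas1 differed by 0.03, with an interval of −0.31 to 0.37. In embryos of these earlier stages its medians were 9.86 (6.92 to 16.6) and 13.9 (6.47 to 19.6), a difference of 0.33 with an interval of 0.04 to 0.63 and an adjusted p of 0.189.

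Alas2 in yolk sacs differed by −0.37 between conditions at the 5–6 somite stages, with an interval of −0.72 to −0.02, and by −0.09 at the 7–9 somite stages, with one of −0.42 to 0.24. Urod and Uros in the earlier yolk sacs differed by −0.34 (−0.59 to −0.09) and −0.51 (−0.94 to −0.08), with adjusted p values of 0.523 and 0.552 in edgeR's test. Without the pair of libraries that stood apart the intervals of Alas2 (−0.70 to 0.02) and Uros (−0.76 to 0.03) included 0, and that of Urod was −0.44 to −0.04. The litter means of all 3 had adjusted p values above the threshold as well. Cpox differed by −0.20 (−0.55 to 0.15) and −0.08 (−0.35 to 0.19) in the earlier and later yolk sacs, Ppox by 0.02 (−0.34 to 0.38) and 0.09 (−0.24 to 0.42), and Fech by 0.02 (−0.16 to 0.20) and 0.07 (−0.18 to 0.31). In embryos Cpox differed by 0.02 (−0.29 to 0.32) and −0.28 (−0.60 to 0.05), and Fech by 0.05 (−0.14 to 0.23) and 0.10 (−0.09 to 0.30).

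Alas2 in embryos of the 7–9 somite stages had too few counts to pass the filter in the comparison of conditions. Its values were 0 to 7.25 with a median of 1.51 in 16 normal embryos, and 0 to 30.6 with a median of 2.23 in 16 diabetic embryos. The diabetic group held the 4 highest values, 30.6 in D28M23B, 25.5 in D28M36D, 13.5 in D24M15G and 9.72 in D28M36C, while the other 12 lay within the range of the normal embryos. The repeat library of embryo D24M15G, left out of comparisons, gave 6.41, which is within the range of the normal embryos. It held 8 counts of Alas2, against 16 in the library used. With no filter the log2 difference was 1.42 with an adjusted p of 0.118, and with DESeq2 it was 1.46 with 0.0817. With the first number of the sample titles as a covariate, a number whose meaning the labels do not give, Alas2 entered the test and was called, at 1.88 with an adjusted p of 0.0151. Litter means differed by 0.99, exact permutation p = 0.143. The summed level of the 5 primitive erythroid markers was 187 in the median normal embryo (19.3 to 1577) and 230 in the median diabetic embryo (36.7 to 4633), and 0 of the 3 markers tested were called. Their part in these values was not tested. The difference of the diabetes effect between the tissues was called for 0 of 8 enzymes by edgeR and DESeq2 at either stage, beside 0.0% and then 0.389% of all genes tested. The unadjusted p was under 0.05 for 1 and 2 enzymes, and the largest was Alas2 at the later stage, −1.51 ± 0.52 with an adjusted p of 0.115. Among all genes at the 5–6 somite stages 895 had an unadjusted p under 0.05, none of them called by DESeq2.

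Across libraries of a tissue, levels of Alas2 went with those of the primitive erythroid markers Hbb-bh1, Hba-x, Hbb-y, Gata1 and Klf1. Each library's deviation from the mean of its group, on the log2 scale, was set against the mean deviation of these markers, and 32 such relations were computed over 8 enzymes, 2 tissues and 2 marker lists. In the 66 yolk sacs, Pearson's r for Alas2 was 0.876 and Spearman's rho 0.867, each with the smallest p the 100000 permutations can give, 1e-05, and adjusted p values of 0.00016 and 0.000107. Without the 2 libraries farthest from the median of the markers r was 0.867, and within litters of at least 2 concepti, 53 yolk sacs, it was 0.861 with an adjusted permutation p of 0.00032. Littermates and shared libraries tie these points together, and the pair of yolk sacs that stood apart is among them. Urod had r = 0.529 and rho = 0.573, but 0.205 within litters. Fech had r = 0.462, Alad 0.436 and Ppox 0.342, with adjusted permutation p values under the threshold, and 0.221, 0.323 and 0.0208 within litters, where none of these passed. Uros (r = 0.272), Cpox (0.203) and Alas1 (−0.0706) had adjusted permutation p values of 0.0966, 0.212 and 0.642. With the visceral endoderm markers Alas2 had r = 0.534, Urod 0.444 and Fech 0.355 in yolk sacs, and 0.429, 0.198 and −0.165 within litters. That of Fech was 0.285 without the 2 farthest libraries, with an adjusted permutation p of 0.0625. In the 66 embryos, Alas2 had r = 0.579 and rho = 0.498 with the erythroid markers, 0.432 without the 2 farthest libraries and 0.667 within litters. Counts of Alas2 in embryos were near the floor, with group medians of 1 to 2 and with 2 to 3 embryos per group at 0. With the visceral endoderm markers Alas2 had r = 0.204 in embryos and 0.578 within litters, with adjusted permutation p values of 0.295 and 0.0546. Alad was the only other enzyme there with an adjusted permutation p under the threshold, with the visceral endoderm markers, r = 0.350 with an adjusted permutation p of 0.0203, and r = 0.525 within litters. Its rho of 0.304 had an adjusted permutation p of 0.0594 and did not pass.

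**Figure D5:**
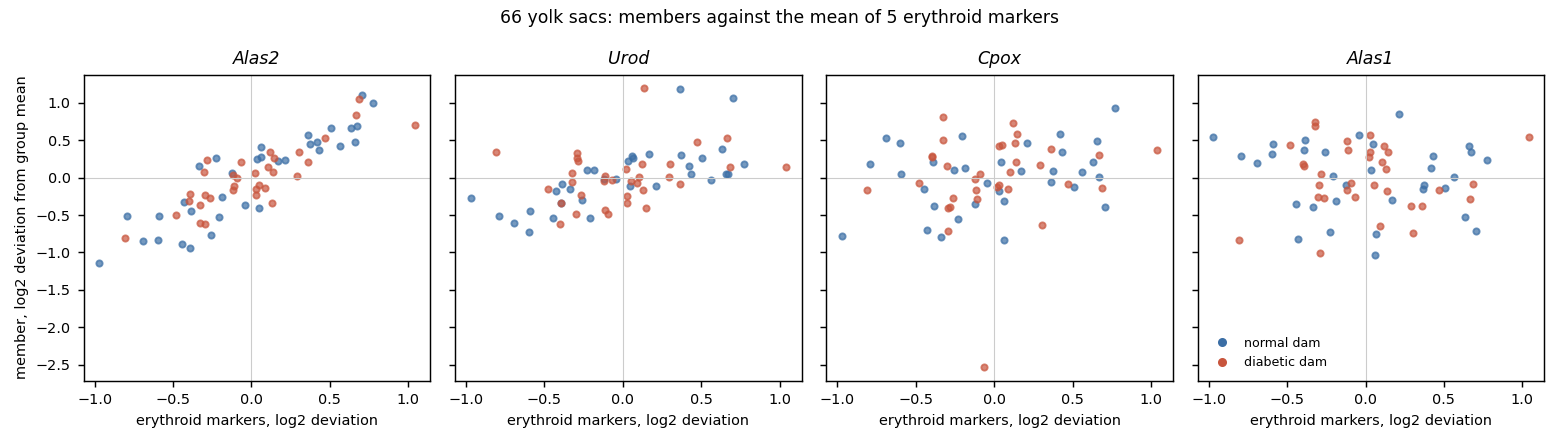
Deviation of Alas2, Urod, Cpox and Alas1 from the group mean in 66 yolk sacs against the mean deviation of 5 erythroid markers, both on the log2 scale, colored by maternal condition. The points of Alas2 follow a line (r = 0.876), those of Urod do so less closely (r = 0.529), and those of Cpox (0.203) and Alas1 (−0.0706) do not; the lowest point of Cpox is D28M02G.

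The genes most like each enzyme over the 66 yolk sacs, by Pearson's r of deviations from group means among genes with a mean of at least 10 counts, were of different kinds. For Alas2 they were Hbb-y (0.845), Hba-a1 (0.839), Blvrb (0.746), Slc4a1 (0.746) and Mrap (0.735). The first 2 are globins, Blvrb is a biliverdin reductase, and Slc4a1 is the anion exchanger of the red cell membrane. For Alad they were Slc25a37 (0.795), the mitochondrial iron importer mitoferrin, Cavin1 (0.788), Abca3 (0.783), Gatad2a (0.767) and Tal1 (0.766), a blood transcription factor. For Urod they were Cmc2 (0.786), Mrpl24 (0.775), Atp5o (0.772), Ndufa2 (0.771) and Copz1 (0.757). Ndufa2 is a subunit of a respiratory chain complex, Atp5o is one of the ATP synthase, and Mrpl24 is a mitochondrial ribosomal protein. For Cpox they were Rbm38 (0.846), Slc35g1 (0.827), Ctbp1 (0.824), Gnb2 (0.816) and Khdc4 (0.815). The closest gene to Alas1 was Slc25a22 (0.721), to Uros Hacd2 (0.698), to Fech Trim2 (0.684) and to Ppox Mpv17 (0.519). Among the enzymes themselves the closest pairs were Alas2 and Urod (0.585) and Uros and Cpox (0.536), and Alas1 was negatively related to Urod (−0.369) and to Alas2 (−0.217). These values are descriptions over libraries that share litters, and depth differed among them.

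Of 23 other genes of heme and iron handling, 22 were found in the table, and Hebp1 is not analysed here. The list was chosen with earlier results of these data known. In the tissue comparison 17 of 22 were called higher in the yolk sac and 3 lower at the 5–6 somite stages, and 18 higher and 3 lower at the 7–9 somite stages. Of all genes tested 38.5% were called higher and 40.7% lower in the first comparison, and 39.1% and 42.0% in the second. Of the mitochondrial transporters, Abcb10 was higher by 2.73 ± 0.09 and 2.94 ± 0.09, Slc25a37 by 1.94 ± 0.13 and 2.08 ± 0.13, and Slc25a38, which carries glycine for the first step, by 0.73 ± 0.10 and 1.21 ± 0.10. Blvrb, of heme breakdown, was higher by 3.87 ± 0.14 and 3.88 ± 0.16, and Flvcr2, a transporter, by 3.45 ± 0.19 and 4.02 ± 0.19. Tspo and Ireb2 were lower in yolk sacs than in embryos at either stage, Tspo with differences of −0.89 ± 0.12 and −0.61 ± 0.10.

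With stage, 6 of these 22 rose and 4 fell in diabetic yolk sacs, and 2 rose and 1 fell in normal ones. Of all genes tested 18.0% rose and 15.7% fell in diabetic, and 4.82% rose and 3.02% fell in normal yolk sacs. Slc25a38 rose by 0.72 ± 0.16 in diabetic and 0.61 ± 0.13 in normal yolk sacs, and Flvcr2 by 1.42 ± 0.20 and 0.78 ± 0.20. Bach1, a repressor that heme inactivates, had differences of −0.41 ± 0.15 and −0.30 ± 0.09 and was called lower in each. In diabetic yolk sacs Hmox1, the inducible heme oxygenase, fell by 0.73 ± 0.17, Flvcr1, a heme exporter, fell by 0.52 ± 0.16 and Ireb2, an iron regulatory protein, fell by 0.49 ± 0.10. In the comparison of diabetic with normal pregnancies, 3 of 20 tested were called in embryos of the 7–9 somite stages, all higher, namely Tspo by 0.55 ± 0.11, Slc48a1 by 0.43 ± 0.12 and Tmem14c by 0.30 ± 0.07, where 5.2% of all genes tested were called higher. None was called in the other 3 comparisons by edgeR. These tests treated littermates as independent, and tests over litter means are not given for these genes. With counts summed per litter, far fewer genes were called in embryos of the 7–9 somite stages, as given in the last section.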

How the data were processed

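RNA of 136 libraries was measured by the authors with a 3′ method (QuantSeq FWD, NextSeq) that attaches unique molecular identifiers. Reads were aligned with STAR, collapsed by identifier and assigned to genes with HTSeq; the submitters' processing notes name the build mm10, and versions, annotation and strand setting are not given in the sources used here. The deposited values are raw counts of molecules per gene, without normalization or filter.

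Normalized counts are counts divided by DESeq2 1.42.0 size factors over 132 libraries. Genes were tested under R 4.3.3 with edgeR 4.0.16 (glmQLFit and glmQLFTest, TMM, filterByExpr with a minimum count of 10), fitted on the whole table; an adjusted p under 0.05 was a call. With this filter, rare transcripts such as Alas2 in embryos had no test within embryos. Litter means of log2(normalized count + 1) were compared by exact two-sided permutation tests. Order tests and correlations used 100000 permutations with the same pseudocount of 1. Groups followed the labels; the 4 duplicate libraries were left out. The scripts were tested on simulated data.

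Alternatives were DESeq2, other size factors, no filter or a minimum mean count of 10, litter as a random block (limma 3.58.1), counts summed per litter, covariates, and leaving out each litter. The alternative without 2 yolk sac libraries was chosen after seeing the data. Sex labels of embryo and yolk sac differed in 2 concepti, which were also left out as an alternative. Embryo and yolk sac of a conceptus share a label because they come from 1 conceptus; the median correlation of their deviations was 0.0998 at the 5–6 and 0.0440 at the 7–9 somite stages.

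Genes named are the 8 enzymes, the listed genes of heme handling and markers, overlapping genes, and at most 5 genes per enzyme with the highest correlation over yolk sacs. The members and lists were chosen with earlier results of these data known. Some genes of heme handling are not reported here.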

Additional observations from a re-analysis of the deposited data

Results flagged for a closer look

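The stage change of Alad in embryos differed between diabetic and normal pregnancies by 0.43 on the log2 scale in the test of the interaction, as described above. It was 0.57 in diabetic and 0.13 in normal embryos.

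In groups of 4 to 10 libraries with the same tissue and number of somite pairs, 32 sets of values were examined for a library far from the others, by the gap to its neighbour divided by the range. Chance gives about 1 such library in 20 groups. In embryos with 9 somite pairs, the highest value of Alas2, 25.5 in the diabetic embryo D28M36D, lay a gap of 0.770 of the range above the next, 6.63. In embryos with 6 somite pairs, the highest value of Alad, 213 in the normal embryo N28M22C, lay 0.617 of the range above the next, 155. In yolk sacs with 9 somite pairs, the highest value of Urod, 321 in the normal yolk sac N28M07H, lay 0.656 of the range above the next, 184.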

How the results depend on the processing

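The calls of the 8 enzymes between tissues and of the 5 between stages in diabetic yolk sacs were kept under every alternative run, leaving out each litter included for stage, except Urod between tissues at the 5–6 somite stages without the 2 yolk sac libraries that stood apart. With the conceptus as a replicate block, the pairing of embryo and yolk sac changed no call; Urod differed by 0.22 and 0.64 between tissues. The number of enzymes called was otherwise 1 in embryos of the 7–9 somite stages for diabetes with the title number as covariate (Alas2), and 0 to 1 when each litter was left out. For stage in diabetic embryos it was 3 with DESeq2, Alas2 added, and 1 to 2 when each litter was left out. There Urod lost its call with no filter, at an adjusted p of 0.0764 in edgeR's test. For stage in normal yolk sacs it was 1 with no filter or with the title number, 4 without the 2 libraries, and 1 to 4 when each litter was left out, the highest without N28M06. For the slope in embryos it was 2 with DESeq2 or no filter, Alas2 added, and for the interaction of condition and stage in embryos 0 with RLE size factors or no filter.

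Differences that were not called and lay near 0 changed sign. For diabetes, Cpox in embryos of the 5–6 somite stages gave −0.0085 with no filter, −0.0112 with somite number and sex, and −0.0570 to 0.0802 over left-out litters. In yolk sacs of these stages Ppox gave −0.0217 with the title number, −0.0043 without concepti of unlike sex labels and −0.11 to 0.11 over litters, Fech −0.0098 with counts summed per litter and −0.0220 to 0.0761 over litters, and Alas1 −0.0505 to 0.117. In yolk sacs of the 7–9 somite stages Alas2 gave 0.0063 with the litter as a block and −0.208 to 0.0569 over litters. Urod gave −0.0660 and Fech −0.0609 without the 2 libraries, and −0.0772 to 0.183 and −0.0903 to 0.168 over litters. For stage, Alas1 ranged from −0.0295 to 0.239 in normal and −0.126 to 0.0740 in diabetic embryos, and Fech from −0.0220 to 0.274 in diabetic yolk sacs. The slope of Alas1 in yolk sacs was 0.0014 with the litter as a block. Correlations near 0 changed sign within litters for Uros (−0.0100) with erythroid and Urod (0.0605) and Ppox (0.117) with visceral endoderm markers in embryos, and for Alas1 (0.0699) with erythroid and Uros (−0.0113) and Fech (−0.165) with visceral endoderm markers in yolk sacs. That of Urod with erythroid markers in embryos was −0.0011 without the 2 farthest libraries. The cause of these changes was not tested.

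Counts of all genes called depended on the treatment of litters. For diabetes, 161 genes in embryos of the 5–6 somite stages became 4 with the litter as a block, 0 with litter sums, 493 with DESeq2, 448 with the title number, 291 with no filter and 4 to 675 over left-out litters. The 966 genes at the 7–9 somite stages became 314, 8 and 1899 with block, sums and title number, 609 without concepti of unlike sex labels, and 501 to 1067 over litters. In yolk sacs the count of 0 became 4 with DESeq2 and 5 with the title number, and the count of 2 became 38, 25 and 11 with DESeq2, no filter and the higher minimum. For stage, 785 genes in normal yolk sacs became 483 with no filter, 1497 without the 2 libraries and 244 to 1166 over litters, and 1615 in normal embryos 489 to 1910. For the interaction in embryos 984 became 438 with no filter, and for that of condition and tissue 45 became 222 with DESeq2, 22 with no filter, 99 with the block and 116 without the 2 libraries. Between tissues 9091 and 9235 became 14180 and 14915 with no filter. The median log2 difference of all genes between tissues moved from −0.02 and −0.03 to −0.15 and −0.18 with DESeq2 and to −0.13 and −0.22 with no filter, and the 8 enzymes stayed higher in the yolk sac. Litters share dams, so the libraries are fewer independent units than their number, and low counts limit Alas2, Uros and Ppox in embryos.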
